A study of Mus musculus with 3 samples.

Results

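Basement membrane genes were measured in primary mouse embryonic fibroblasts labelled SA1-null and labelled wild type. The set holds the collagen genes Col4a1, Col4a2, Col15a1 and Col18a1, the laminin genes Lama4, Lamb1 and Lamc1, the nidogen genes Nid1 and Nid2, and Hspg2, which encodes perlecan. Members were all probes whose transcript accession belongs to one of these 10 genes. They came to 15 probes of 9 genes among 41174 probes, and 14 of the 15 were well above background in at least 1 channel on all 3 arrays. No probe matched Hspg2, whose expression is not analysed here.

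The fibroblasts came from embryos of stage E12.5, were grown untreated in DMEM with 10% FBS, and gave 1 µg of total RNA per labelling. Each of 3 Agilent arrays set Cy5-dyed RNA of 1 sample called wild type against Cy3-dyed RNA of 1 sample called SA1-null, and the labels number these pairs as biological replicates 1 to 3. SA1, encoded by Stag1, is a subunit of the cohesin ring, and the series asks for its role in gene regulation and development. The labels give neither the disrupted part of Stag1, nor the mouse strain, nor whether embryos were pooled. No array had the dyes reversed, which means that dye cannot be told apart from genotype.

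Basement membranes are thin sheets of matrix that underlie epithelia and endothelia and surround muscle and nerve. Laminin trimers and a covalently linked collagen IV network form their main layers, nidogens and perlecan bridge these layers, and collagens XV and XVIII anchor the sheet to the connective tissue beneath. Fibroblasts make many of these proteins and secrete them into culture medium and matrix.

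In the channel labelled SA1-null the level of Stag1 was 11.4 times that in the channel labelled wild type, a mean of 3.52 ± 0.21 on the log2 scale (SD over n = 3, adjusted p = 0.0289 in limma), with 3.34, 3.74 and 3.47 on replicates 1 to 3. This goes against the label, so the channels are called by their labels throughout and each direction below depends on them. The other Stag1 probes gave 3.53 ± 0.35, 2.17 ± 0.53 and 0.59 ± 0.56, and the last was above background in Cy5 on 0 arrays. Between 60.6% and 67.0% of probes were well above background per channel and array. Replicate 1 was on another slide than replicates 2 and 3, and its log2 ratios over 18722 genes correlated at 0.37 and 0.27 with theirs, against 0.47 between replicates 2 and 3. Genes are not independent replicates.

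Among fibroblast markers, which check the labelled cell type, Col1a1, Pdgfra and Thy1 were detected with both dyes on 3 of 3 arrays. Markers of macrophages and blood cells were also above background, with 21 of 23 measured genes detected on all 3 arrays in Cy3 and 23 in Cy5, and 23 of 23 had a log2 ratio (Cy3, labelled SA1-null, over Cy5) below 0. Their median was -2.86, and 11 passed the test in limma described below, against 0.282% of all genes on the lower side. Over all genes, 10258 of 18810 had a mean ratio below 0. Without replicate 1, 2 or 3 the calls among these markers were 20, 0 and 0, while their median was -2.46, -2.92 and -2.90. The calls over all genes were then 284, 0 and 0. Of the defining endothelial markers, Pecam1 was above background on 0 arrays in both channels, Cdh5 on 1 in each channel and Kdr on 3. Of the whole endothelial list, 8 of 17 markers were above background on all arrays in each channel. Myh11 and Rgs5, the defining markers of pericytes and smooth muscle, were above background on 3 arrays in both channels. So were 11 of 13 markers of that list in each channel. Of the defining epithelial markers, Epcam was above background on 0 arrays in both channels and Cdh1 on 1 array in Cy3 and 3 in Cy5, and 8 of 13 epithelial markers were above background on all arrays in each channel.

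Sequence is shown for 3 of the genes, at the transcription start of Col4a2 and upstream of the starts of Lamb1 and Nid1. The collagen IV pair shares its start region, and the laminin and nidogen stretches hold motifs counted below. Capitals mark the GC box, which reads GGGCGG, and the CCAAT box, each in either its own letters or their reverse complement. The stretches are from RefSeq, assembly GRCm38.p6, on the plus strand, and are chr8:11312801-11312830 for Col4a2, chr12:31265202-31265231 for Lamb1 and chr13:13437511-13437540 for Nid1.
Col4a2: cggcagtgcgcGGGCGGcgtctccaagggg
Lamb1: ctgtcctCCGCCCcctCCGCCCccgctctc
Nid1: ATTGGtagacgggacaggcggggtGGGCGG

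Col4a1 and Col4a2 are transcribed away from each other on chromosome 8. Their annotated starts lie 21 bases apart, at 11312826 on the minus strand and 11312805 on the plus strand. The printed Col4a2 stretch covers both starts, so its GC box is a match in the windows of both genes. In windows of 250 bases before to 50 after the start, searched on both strands, GGGCGG occurred in 6 of 8 windows of 7 of the 10 genes (Col4a1, Col4a2, Col15a1, Col18a1 with 2 windows, Lamb1, Nid1 and Hspg2), against 35.7% of all 32851 windows. CCAAT occurred in 5 of 8, against 37.4%, and TATAAA in 0 of 8, against 13.6%. No GGGCGG match shared bases with a CCAAT match in these windows. The window of Col15a1 and 1 of the 2 windows of Col18a1 held none of the 3 motifs. In the printed stretches the Lamb1 GC boxes begin 84 and 75 bases before the start, and the Nid1 CCAAT and GC box begin 91 and 67 bases before it. These matches are letters in a window and carry no measurement of binding.

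Of the 9 measured genes, 0 passed the test across all genes in limma (adjusted p under 0.05), against 55 of 18810 genes, or 0.292%, which split into 2 genes (0.0106%) on the higher side and 53 on the lower side in the channel labelled SA1-null. At an unadjusted p under 0.05 in limma, 1 of the 9 remained, Col15a1, which was on the higher side, against 7.42% of all genes in either direction and 2.3% on the higher side. The mean log2 ratio was above 0 for 8 of 9, against 45.5% of all genes. Centring the arrays on their median in place of loess moved the median of all genes to -0.29, so counts with median centring are given against that value, and 6 of 9 lay above it (5 above 0). With loess, the median of the 9 genes was 0.65, against -0.03 over all genes. It differed between arrays, at 0.31, 0.02 and 0.82 on replicates 1, 2 and 3, and leaving out replicate 3 lowered it to 0.16. Col4a2, Col15a1 and Nid2, 3 genes, were above 0 on all 3 arrays, or 33.3% of the 9 against 13.1% of all genes, and for Col4a2 and Nid2 at least 1 of those ratios was 0.02.

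**Figure D1:**
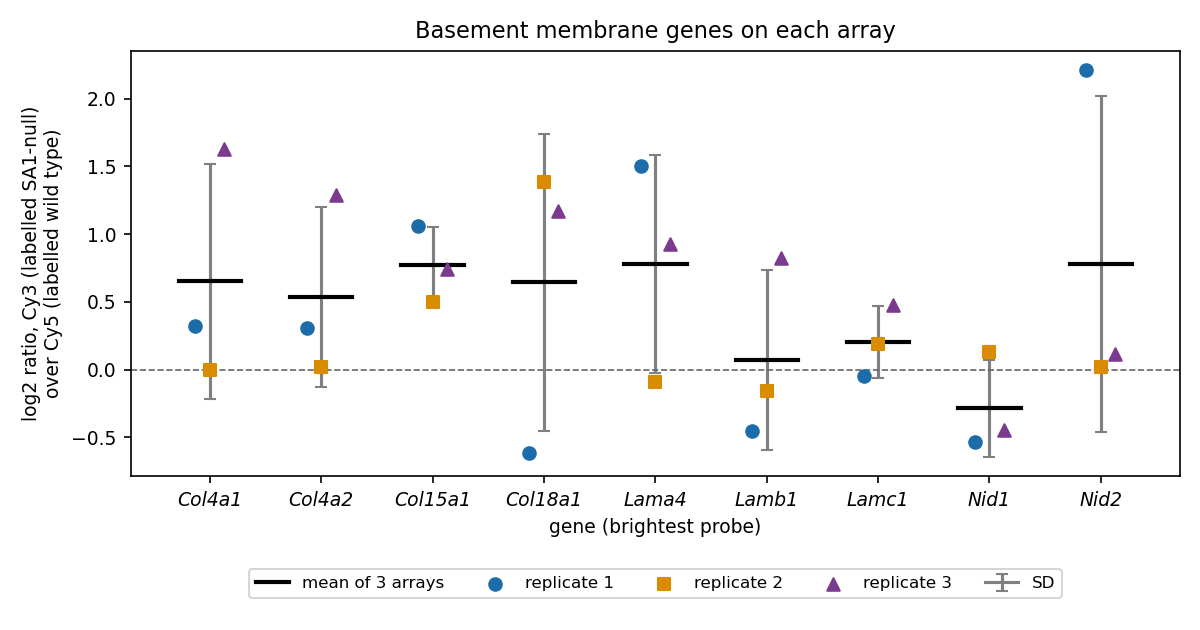
Log2 ratio of Cy3 (labelled SA1-null) over Cy5 (labelled wild type) for the 9 measured genes, 1 point per array, with the mean as a bar and the SD as a whisker. Replicate 3 is the highest point for Col4a1, Col4a2, Lamb1 and Lamc1, replicate 1 for Nid2, Lama4 and Col15a1, and replicate 2 for Col18a1 and Nid1.

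Col4a1 and Col4a2 encode the alpha1 and alpha2 chains, which combine into the collagen IV trimer found in nearly all basement membranes. Normalised levels of Col4a1 in the channel labelled SA1-null were 13.50, 13.55 and 14.99 on the log2 scale on replicates 1 to 3, against 13.18, 13.55 and 13.36 in the channel labelled wild type. Replicate 3 stood above the other values, the others lay within 0.37 of each other, and the channels overlapped. The log2 ratios of 0.32, -0.00 and 1.63 gave a mean of 0.65 ± 0.86 (SD, n = 3, limma adjusted p = 0.712) with a 95% interval from -0.27 to 1.57, and the ratio on replicate 3 was 3.10-fold.

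Col4a2 had levels of 13.42, 12.84 and 14.29 in the channel labelled SA1-null against 13.12, 12.82 and 13.01 in the channel labelled wild type. Replicate 3 was again the highest, and the channels overlapped. The mean log2 ratio was 0.54 ± 0.67 (SD, n = 3, limma adjusted p = 0.712), with an interval from -0.21 to 1.28 and a ratio of 2.44-fold on replicate 3. The second probes gave 0.54 ± 0.79 for Col4a1 and 0.55 ± 0.63 for Col4a2, also highest on replicate 3, at 1.42 and 1.23.

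The ratios of the 2 collagen IV chains were the closest of the 36 pairs among the 9 genes. Their root mean square difference over the 3 arrays was 0.199 log2 units, and the difference Col4a1 minus Col4a2 was 0.02, -0.02 and 0.34. The next pairs were Lamb1 with Lamc1 at 0.364 and Col15a1 with Lama4 at 0.439. Among 12103 other genes with a symbol, Col4a2 was the 11th nearest to Col4a1. The 5 nearest were Capn2 (0.0373), which encodes a calpain protease, Srpr (0.0883), a receptor subunit for secretory protein targeting, Ddb1 (0.0994), a damaged-DNA binding protein, Vcl (0.109), the adhesion protein vinculin, and Xbp1 (0.129), a transcription factor of the unfolded protein response. Lamb1 was at rank 1136 and Nid2 at rank 10207. All 5 had their highest ratio on replicate 3, and the measure rests on 3 arrays.

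Col15a1 and Col18a1 encode the multiplexin collagens, whose ends release the fragments restin and endostatin. Col15a1 had levels of 7.94, 8.58 and 8.62 in the channel labelled SA1-null against 6.88, 8.08 and 7.87 in the channel labelled wild type, higher in the former on each array while the channels overlapped across arrays. Its log2 ratios were 1.06, 0.50 and 0.74, or 2.09-, 1.42- and 1.67-fold. The mean of 0.77 ± 0.28 (SD, n = 3, limma adjusted p = 0.386, unadjusted p = 0.00786) had an interval from 0.31 to 1.23 and did not pass.

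Col15a1 was the dimmest of the set, with raw spot signals of 194, 191.5 and 306 in Cy3 and 264, 246.5 and 191 in Cy5. A second, dimmer probe rose well above background on 2 arrays in Cy3 and on 0 in Cy5, so no fold is given for it. With the slide as a term in the fit the ratio was 0.84 and passed (limma adjusted p = 0.0246). In that fit 1819 genes passed over all genes. It takes each gene's own spread only from the 2 arrays that share a slide.

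Col18a1 had levels of 12.29, 14.20 and 13.86 in the channel labelled SA1-null and 12.91, 12.81 and 12.69 in the channel labelled wild type. It was 1.53-fold lower on replicate 1, and 2.61-fold and 2.25-fold higher on replicates 2 and 3. The mean log2 ratio was 0.65 ± 1.10 (SD, n = 3, limma adjusted p = 0.729), with an interval from -0.49 to 1.78. A second probe had the same signs, at -0.71, 0.94 and 1.71, with its highest ratio on replicate 3 instead of replicate 2. Without replicate 1 the ratio was 1.28 and passed (limma adjusted p = 0.0294), again with a spread from 2 arrays of 1 slide. Over all genes 284 passed there.

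**Figure D2:**
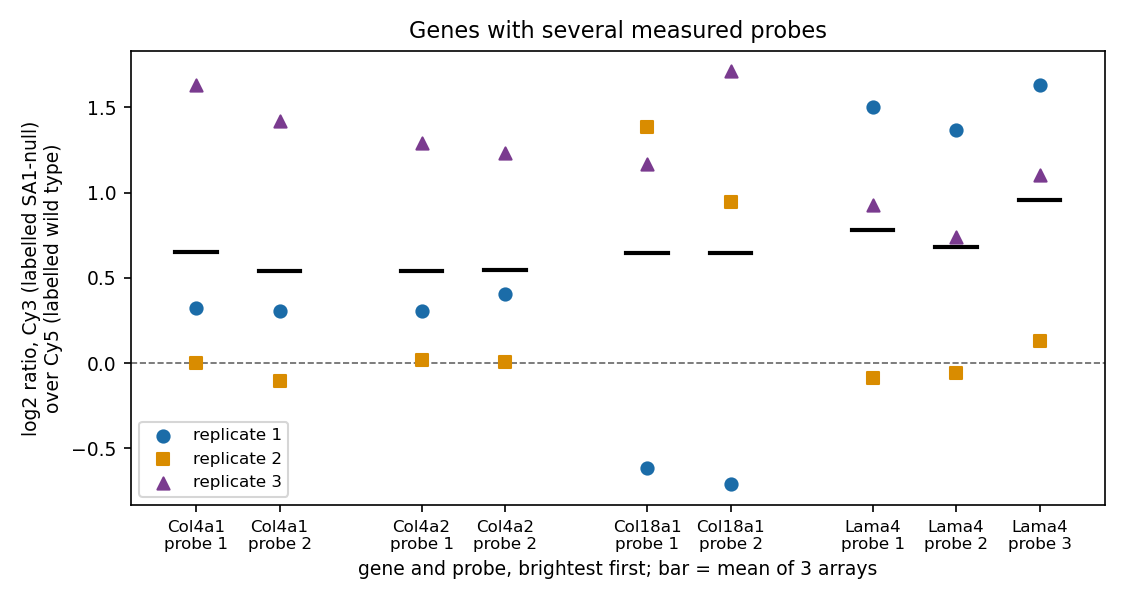
Log2 ratio (Cy3 over Cy5) on each array for every probe of the 4 genes with several measured probes, brightest probe first, with the mean as a bar. Replicate 3 is highest for both probes of each collagen IV gene and replicate 1 for the 3 Lama4 probes, while the 2 Col18a1 probes share only their lowest array, replicate 1.

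Lama4 encodes the laminin alpha4 chain, known from vessel and muscle basement membranes, and Lamb1 and Lamc1 encode the widely used beta1 and gamma1 chains with which it forms a trimer. Lama4 had levels of 12.45, 9.65 and 10.28 in the channel labelled SA1-null against 10.94, 9.74 and 9.35 in the channel labelled wild type. Replicate 1 was the highest in both channels, and the channels overlapped. The log2 ratios were 1.50, -0.09 and 0.93, with a mean of 0.78 ± 0.81 (SD, n = 3, limma adjusted p = 0.696) and an interval from -0.09 to 1.65. The other 2 probes gave 0.68 ± 0.72 and 0.95 ± 0.76.

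Lamb1 had levels of 12.48, 12.499 and 13.44 in the channel labelled SA1-null against 12.93, 12.65 and 12.61 in the channel labelled wild type. It was lower on replicates 1 and 2, at -0.45 and -0.16, and higher on replicate 3, at 0.82. The mean was 0.07 ± 0.67 (SD, n = 3, limma adjusted p = 0.959). Its sign turned in 4 alternatives, among them leaving out replicate 3, where it was -0.30.

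Lamc1 had levels of 14.49, 13.01 and 13.35 in the channel labelled SA1-null against 14.54, 12.82 and 12.87 in the channel labelled wild type. Both channels were highest on replicate 1. Its log2 ratios of -0.05, 0.19 and 0.48 gave a mean of 0.21 ± 0.26 (SD, n = 3, limma adjusted p = 0.762), with an interval from -0.24 to 0.65, which does not reach a 2-fold difference. The 3 laminin chains had no common array order, since Lama4 was highest on replicate 1 and Lamb1 and Lamc1 on replicate 3.

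Nid1 and Nid2 encode the nidogens, rod-like glycoproteins that connect laminin with collagen IV. Nid1 had levels of 14.27, 14.97 and 14.75 in the channel labelled SA1-null against 14.81, 14.84 and 15.20 in the channel labelled wild type. It was the 1 measured gene of the set with a mean below 0, at -0.28 ± 0.36 (SD, n = 3, limma adjusted p = 0.731), from ratios of -0.54, 0.13 and -0.44. Its interval ran from -0.79 to 0.22.

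Nid2 had levels of 13.13, 9.79 and 9.81 in the channel labelled SA1-null against 10.92, 9.77 and 9.69 in the channel labelled wild type. On replicate 1 the channel labelled SA1-null exceeded the other 4.63-fold, and the log2 ratios on replicates 2 and 3 were 0.02 and 0.12. The mean of 0.78 ± 1.24 (SD, n = 3, limma adjusted p = 0.722) became 0.07 without replicate 1. With the slide as a term it was 1.14 and passed (limma adjusted p = 0.00666), a value that weights the single array of slide 1 as much as the 2 arrays of slide 2. In that fit 1819 genes passed over all genes.

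**Figure D3:**
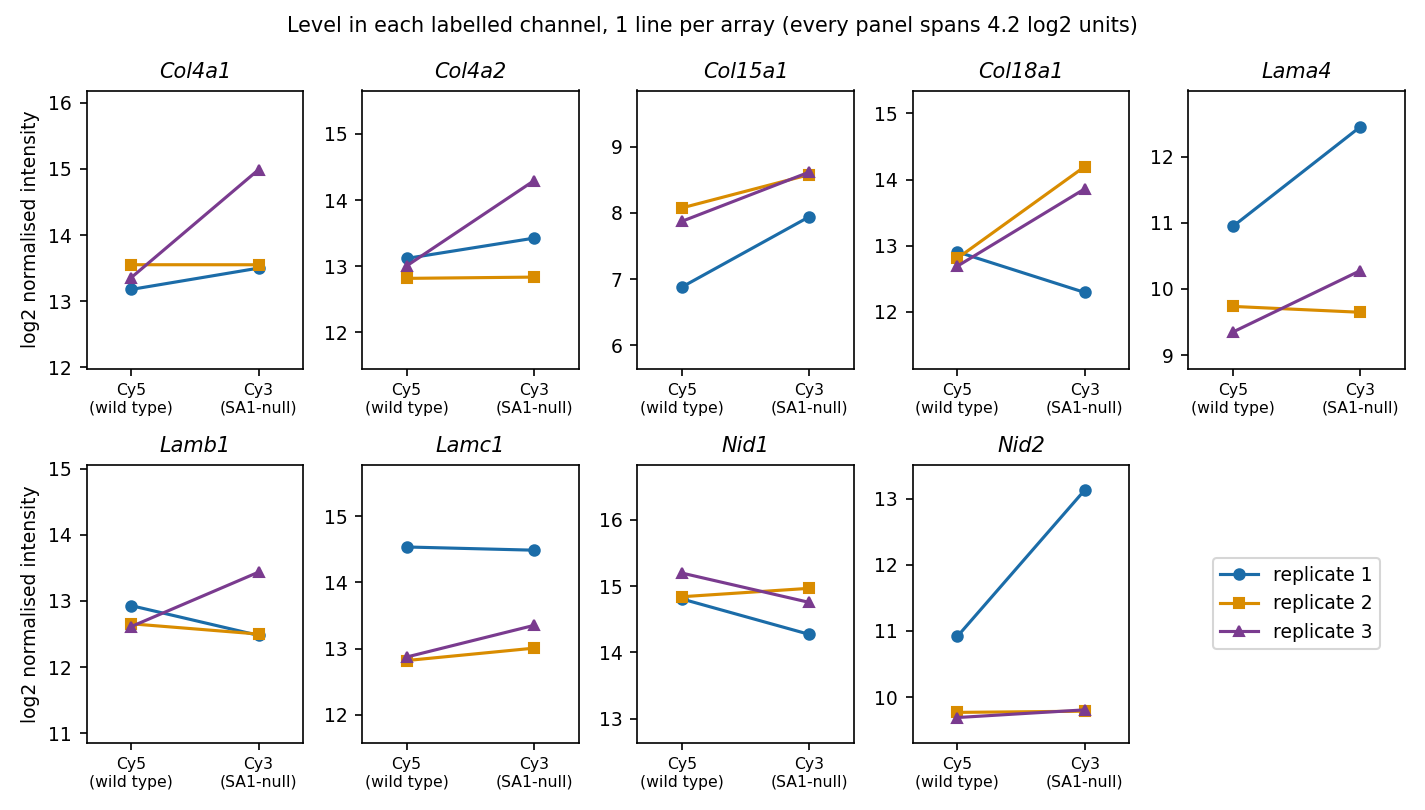
Log2 normalised intensity of each gene in the channel labelled wild type (Cy5, left) and the channel labelled SA1-null (Cy3, right), 1 line per array, with each panel spanning the same log2 range. The Cy5 values of Col4a1, Col4a2, Col18a1 and Lamb1 lie within 0.37 log2 units of each other while their Cy3 values spread over 0.96 to 1.90, and replicate 1 stands apart in both channels for Lama4, Lamc1 and Nid2.

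Levels of the 2 channels overlapped over the 3 arrays for 9 of 9 genes, and so did not overlap for 0, against 8.69% of all genes. Levels varied more in the channel labelled SA1-null than in the other for 7 of 9 genes, against 50.4% of 18722 genes. The median range over the arrays was 1.48 log2 units in the channel labelled SA1-null and 0.39 in the channel labelled wild type, while over all genes it was 0.68 and 0.64. Col18a1 had ranges of 1.90 and 0.22, and Nid2 of 3.34 and 1.23. Col15a1 and Lamc1 went the other way, with 0.67 against 1.19 and 1.48 against 1.72. This description has no test, and the channels also differ in dye.

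Part of the spread followed replicate 1. Nid2 was 10.1-fold higher on replicate 1 than on the mean of replicates 2 and 3 in the channel labelled SA1-null and 2.28-fold higher in the channel labelled wild type. Lama4 was 5.60-fold and 2.64-fold higher, and Lamc1 2.48-fold and 3.22-fold higher. Col18a1 was 3.33-fold lower on replicate 1 in the channel labelled SA1-null and 1.11-fold higher in the other. Lamb1 (1.40-fold lower, 1.23-fold higher) and Col4a2 (1.10-fold lower, 1.15-fold higher) had the same directions. Col4a1, Col15a1 and Nid1 were lower on replicate 1 in both channels. Their folds were 1.70, 1.57 and 1.51 in the channel labelled SA1-null and 1.21, 2.13 and 1.16 in the other. Replicate 1 and its slide cannot be told apart.

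Markers of other cells also differed between arrays and channels. The log2 summed level of 22 macrophage and blood cell markers was 15.09, 13.23 and 12.98 on replicates 1 to 3 in the channel labelled SA1-null and 18.36, 15.80 and 15.69 in the channel labelled wild type. For 15 fibroblast markers it was 19.92, 18.67 and 19.21 against 18.59, 18.48 and 18.28. Endothelial markers, 17 in all, summed to 13.16, 13.16 and 12.71 against 14.11, 13.51 and 13.45. Pericyte and smooth muscle markers, 13 in all, summed to 17.85, 18.26 and 18.58 against 18.68, 18.75 and 18.66. Epithelial markers, 13 in all, summed to 11.08, 12.80 and 12.94 against 10.27, 13.27 and 13.37, and were lowest on replicate 1 in both channels. A sum follows its brightest genes. By log2 ratio, the 3 brightest tested endothelial markers were Flt1 (-0.42 ± 0.51), Cd34 (-1.65 ± 0.73) and Egfl7 (0.24 ± 0.44). For pericytes and smooth muscle they were Acta2 (-0.67 ± 0.58), Tagln (-0.47 ± 0.36) and Cnn1 (-0.63 ± 0.20). For epithelium they were Krt19 (0.66 ± 1.23), Krt18 (-0.75 ± 0.55) and Krt8 (-1.02 ± 0.42). In these 3 lists 0 genes passed in limma, against 0.292% of all genes. Gene by gene, the mean log2 ratio was above 0 for 6 of 9 tested endothelial markers, against 45.5% of all genes. It was above 0 for 6 of 11 pericyte and smooth muscle markers and 6 of 9 epithelial markers. The medians of these 3 lists were 0.07, 0.05 and 0.06. With median centring, 6, 6 and 7 lay above the median of all genes (4, 5 and 5 above 0). In these bulk samples fewer cells of a type and less RNA per cell cannot be told apart, and the part of these markers in the ratios of the basement membrane genes was not tested. The fibroblast markers, with a median log2 ratio of 0.68 and 14 of 16 above 0 (with median centring, 14 above the median of all genes and 8 above 0), had medians of 1.19, 0.10 and 0.59 on replicates 1 to 3, so replicate 2 was nearest 0 for them as for the 9 genes.

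Genes that act with these proteins were read from 4 lists. Of the collagen folding, modification and crosslinking genes, 21 of 23 listed were tested, 0 passed in limma (0.292% of all genes did, and 3 of the 21, or 14.3%, had an unadjusted p under 0.05 against 7.42% of all genes). The mean was above 0 for 20, or 95.2% against 45.5% of all genes, and 19 lay above the median of all genes with median centring (11 above 0). Their median was 0.46, with 0.76, 0.08 and 0.84 on replicates 1 to 3. P3h3, a prolyl 3-hydroxylase family member, was at 0.91 ± 0.58 (limma adjusted p = 0.540). Colgalt1, which adds galactose to collagen hydroxylysine, was at 0.99 ± 0.70, Crtap, a partner of the prolyl 3-hydroxylase complex, at 0.60 ± 0.44, and P4hb, the beta subunit of prolyl 4-hydroxylase, at 0.78 ± 0.70.

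Of 33 other basement membrane components, 23 were tested, 0 passed in limma, and 5, or 21.7%, had an unadjusted p under 0.05 against 7.42% of all genes. The median of the 23 was 0.22, with 0.18, 0.02 and 0.51 on replicates 1 to 3. On average 14, or 60.9%, were above 0 against 45.5% of all genes. With median centring 14 lay above the median of all genes (10 above 0). Col6a1 and Col6a2, chains of the microfibrillar collagen VI, were at 1.64 ± 0.98 and 1.37 ± 0.82. Col6a1 had ratios of 2.37, 0.53 and 2.04 on replicates 1 to 3. Tinagl1, a matricellular protein related to tubulointerstitial nephritis antigen, was at 1.10 ± 0.55 (limma adjusted p = 0.386). Col4a4, a collagen IV chain known from kidney and other restricted membranes, was at 0.65 ± 0.20.

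Of 20 genes listed as receptors for basement membrane proteins, 18 were tested and 0 passed in limma. An unadjusted p under 0.05 was found for 2, or 11.1%, against 7.42% of all genes. The median of the 18 was 0.24, with -0.06, 0.03 and 0.48 on replicates 1 to 3, where 8, 11 and 15 were above 0. On average 12, or 66.7%, were above 0 against 45.5% of all genes. With median centring 10 lay above the median of all genes (6 above 0). Ddr2, a receptor tyrosine kinase known for fibrillar collagens, was at 1.06 ± 0.60 (limma adjusted p = 0.454). Sdc1, a heparan sulfate proteoglycan, was at 0.59 ± 0.50 and Dag1, which encodes dystroglycan, a laminin receptor, at 0.52 ± 0.45. Rpsa, a ribosomal protein also known as a laminin receptor, was at 0.62 ± 0.46, and reads as uncertain because near-identical retrogene copies exist and its second probe gave 0.42 ± 0.96. These 4 receptors were named for the smallest p, and all lie above 0. The 6 receptors below 0 were Itga3 (-0.87 ± 1.40), Itga7 (-0.68 ± 0.97), Cd151 (-0.64 ± 0.74), Bcam (-0.31 ± 0.78), Itga6 (-0.23 ± 0.88) and Sdc4 (-0.20 ± 0.22).

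The proteases and inhibitors held the only calls among these 4 lists. Of 23 listed, 19 were tested, and 2 passed, both lower in the channel labelled SA1-null, against 0.282% of all genes in that direction. At an unadjusted p under 0.05 there were 7 of 19, or 36.8% against 7.42% of all genes, 3 on the higher and 4 on the lower side. The list's median was -0.15, with -0.29, -0.07 and 0.08 on replicates 1 to 3. Above 0 were 8, or 42.1%, and 9 lay above the median of all genes, or 6 with median centring (4 above 0). Mmp3, stromelysin-1, which cleaves laminin, nidogen and collagen IV, was at -2.01, -1.92 and -1.84 on replicates 1 to 3, a mean of -1.92 ± 0.09 (SD, n = 3, limma adjusted p = 0.0326). Ctss, the cathepsin S gene, typical of macrophages and other antigen-presenting cells, was at -4.92, -3.45 and -4.08, a mean of -4.15 ± 0.73 (SD, n = 3, limma adjusted p = 0.0326). These are the 2 lowest ratios of the list. Both calls ended with median centring (adjusted p = 0.0981 and 0.0549 in limma, at ratios of -2.26 and -4.59) and without replicate 2 or 3, among other alternatives. With 1 replicate left out the ratios were -1.97 to -1.88 for Mmp3 and -4.50 to -3.77 for Ctss. Timp3, an inhibitor of metalloproteinases that is held in the matrix, was at 0.80 ± 0.55 and Mmp9, a gelatinase that cuts collagen IV, at -0.77 ± 0.57, and neither passed.

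**Figure D4:**
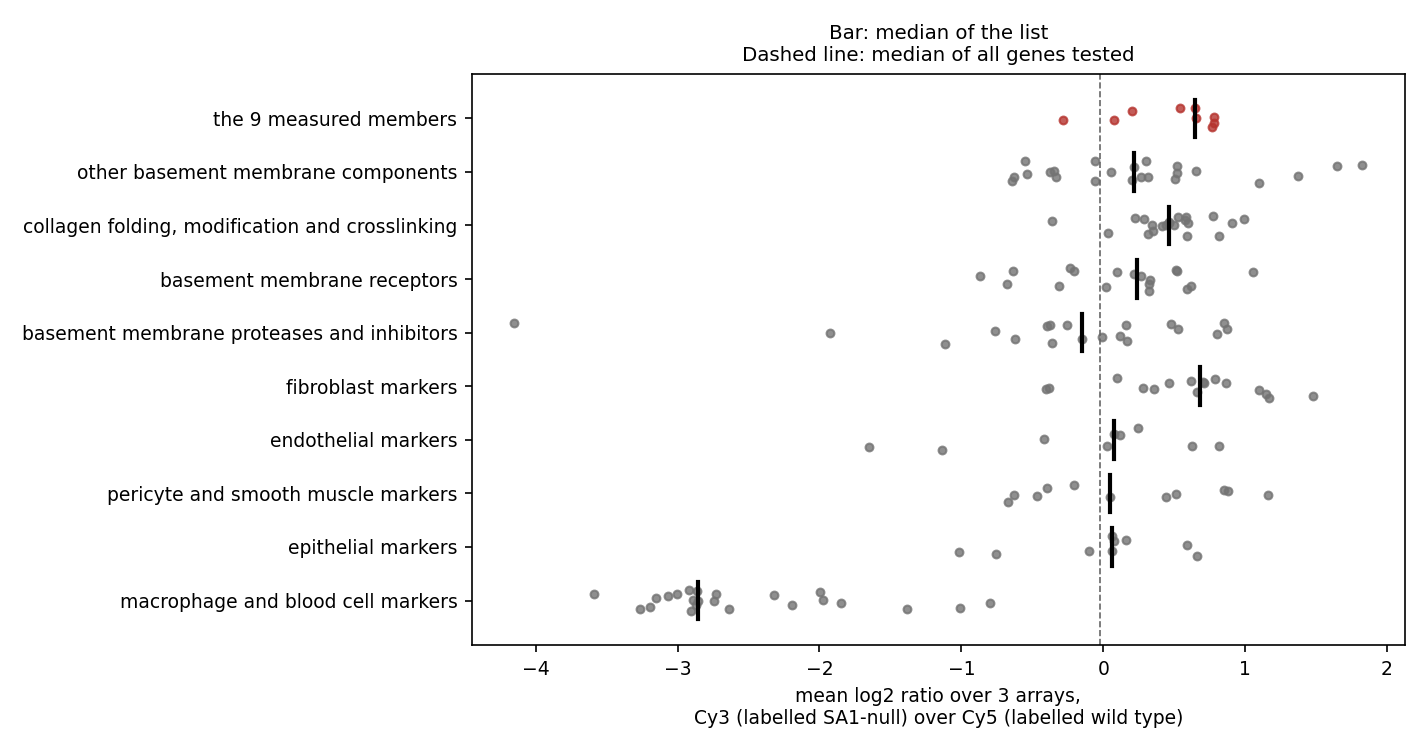
Mean log2 ratio (Cy3 over Cy5) of each tested gene by list, 1 point per gene, with the list's median as a bar and the median of all genes tested as a dashed line. The 9 basement membrane genes have a median of 0.65, the folding and crosslinking genes 0.46 and the fibroblast markers 0.68, while the macrophage and blood cell markers lie below 0 with a median of -2.86.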

How the data were processed

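Total RNA of 3 pairs of fibroblast samples was measured on 2-colour Agilent arrays. The deposited scanner files hold spot and background intensity values made by Feature Extraction 10.1.1.1 (replicate 1) and 10.7.3.1 (replicates 2 and 3), per the file headers. Their log10 ratio of processed Cy5 over Cy3, deposited by the authors, served only as a check of direction. The deposited table holds log2 values made by the authors with limma, per the submitters' processing notes, with version and normalization not given in the sources used here. Against the ratios computed here they ran as Cy5 over Cy3 (correlations 0.985, 0.982 and 0.997, slopes 0.957, 1.03 and 1.00, medians -0.02, -0.02 and -0.01), and their centring stays unknown.

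Median spot signals were corrected with normexp (offset 50) and loess in limma 3.58.1 under R 4.3.3, and log2 ratios were turned to run as Cy3 (labelled SA1-null) over Cy5. Control spots were left out, as were 116, 125 and 207 flagged spots, and 0 spots were saturated. Probes well above background in at least 1 channel on all 3 arrays were kept (24451), and the brightest probe stood for each of 18810 genes, 12167 of them named through RefSeq (GRCm38.p6, 23374 spots matched). Levels per channel followed Aquantile normalization. Each mean ratio was tested against 0 with lmFit and eBayes, adjusted by Benjamini-Hochberg over all genes (threshold 0.05), and the code was tested on simulated data. The number of arrays limits the precision: turning the signs of 3 arrays gives no two-sided exact p under 0.25, and no label names separate animals, so p-values measure the spread between these samples.

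The basement membrane genes and all lists were chosen with earlier results of these data known. Named are every member, Stag1, up to 4 genes of smallest p per matrix list, the receptors with a mean below 0, marker genes chosen by intensity or as defining markers, and the 5 genes nearest to Col4a1. Alternatives were other background corrections and normalizations, the deposited values, other filters and probe rules, other variance models, unpaired channels, omission of single replicates, a slide term, a looser threshold (0.1), and array weights, which were added after seeing the data. Figures were drawn with matplotlib 3.10.9.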

Additional observations from a re-analysis of the deposited data

How the results depend on the processing

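With 3 arrays, the count of genes passing over all genes ranged widely. It was 118 with no background subtraction, 265 with an offset of 0, 323 from the processed signals, 157 with scale normalization, 97 with both channels above background, 132 at a threshold of 0.1, 186 with array weights (0.481, 3.10 and 0.671), 30 with median centring, 1819 with the slide as a term, and 0 to 284 with 1 replicate left out. It was 0 in limma with no filter on dim probes (1990 at an unadjusted p under 0.05), with an eBayes trend (1111), and without replicate 2 (1286) or 3 (745). Each array pairs 1 sample of each label, and without that pairing as a replicate block the count was 0 in limma (642 unadjusted), with 0 of the 9 basement membrane genes called. Of these 9, 2 were called with the slide as a term, where 1819 passed over all genes, and 0 to 1 with 1 replicate left out. Their median log2 ratio was 0.0748 with median centring, where the median of all genes was -0.29, 0.25 with array weights, and 0.16 to 0.80 with 1 replicate left out. Those above 0 were 5 with median centring (6 above the median of all genes), 7 with array weights or the slide as a term, 7 to 8 with 1 replicate left out, and 13 of 14 when every probe stood alone. Signs turned with median centring for Col4a2 (-0.0016), Lamb1 (-0.43), Lamc1 (-0.33), Rpsa (-0.0896) and Vcl (-0.0288), and for Lamb1 with the slide as a term (-0.0580), with 1 replicate left out (-0.30 to 0.33) and with array weights (-0.0341). The cause of these changes was not tested. Stag1 passed in 12 of 18 alternatives, Mmp3 and Ctss in 11 each.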
